A study of Homo sapiens with 8 samples.

Results

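The 34 genes described here make cholesterol and fatty acids, move sterols, or control the sterol-regulated transcription factors SREBF1 and SREBF2. They were chosen by name as a pathway, not by their values on the arrays, though earlier results of these data were known. Of the 34 genes, 31 had at least 1 probe set annotated to a single gene symbol, with 67 such probe sets between them, and 29 passed the filter on low signals, among 12672 genes tested in all. FDFT1, CYP51A1 and FADS1 were not analysed here. MVD and FADS2 were measured but not tested, because MVD was below its array's median signal on all 8 arrays and FADS2 reached the median on 1 array only.

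Gene expression was measured in A375, an established human melanoma cell line, with 8 HG-U133 Plus2 arrays that fall into 4 groups of 2. The cells carried a Doxycycline-inducible hairpin delivered by lentivirus, either a control hairpin (shNTC) or 1 hairpin against *HSF1* (shHSF1, sh1999 in the titles). HSF1 is the master transcription factor of the heat shock response, and NVP-HSP990 is a small-molecule inhibitor of the chaperone HSP90. The control line was given 0.1% DMSO, without Doxycycline (shNTC DMSO) or with it (shNTC Dox DMSO), and the other line 100 nM NVP-HSP990, likewise uninduced (shHSF1 HSP990) or induced (shHSF1 Dox HSP990). Growth lasted 3 days, with 100 ng/ml Doxycycline for the induced groups, and DMSO or NVP-HSP990 was then given for 3 h. The protocol text names Doxycycline for every line, whereas the titles separate uninduced from induced cells, and the titles were followed. The shHSF1 HSP990 and shNTC DMSO groups differ in the hairpin line as well as in the inhibitor, so line and inhibitor cannot be told apart there. The shHSF1 Dox HSP990 and shHSF1 HSP990 groups differ in Doxycycline as well as in the knockdown, which cannot be told apart within that comparison. Doxycycline without the knockdown was measured only in shNTC cells under DMSO. No shNTC cells with NVP-HSP990 and no shHSF1 cells with DMSO are among the 8 arrays.

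Cells build cholesterol from acetyl-CoA through mevalonate, farnesyl diphosphate, squalene and lanosterol. When membrane sterol is low, SCAP carries the SREBP precursors from the endoplasmic reticulum to the Golgi, where proteases free the part that enters the nucleus and switches on the pathway, while INSIG1 and INSIG2 hold SCAP back when sterol is plentiful. SREBF2 acts mainly on the sterol enzymes and SREBF1 mainly on fatty acid synthesis, and nearly every enzyme named below is a known SREBP target.

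The promoters of the genes nearest to the test's threshold, and of SREBF2 itself, are shown because SREBP binds its targets through a sterol regulatory element, usually beside a CCAAT box bound by NF-Y. The sequences are the 250 bases before a start site in RefSeq on GRCh38.p14, read 5′ to 3′ along the gene, with capitals marking CCAAT on either strand (ATTGG when read on the other) and, in SREBF2, the sterol regulatory element as well. They lie at chr5:43313413-43313662 on the minus strand for HMGCS1, chr17:41918952-41919201 on the minus strand for ACLY, chr1:162790452-162790701 on the plus strand for HSD17B7 and chr22:41832855-41833104 on the plus strand for SREBF2. RefSeq lists 2 promoters for HMGCS1 and 2 for ACLY, of which 1 is shown for each. It was picked for having the most CCAAT boxes before the start, so the choice favours this motif. The HMGCS1 promoter not shown held no CCAAT.
HMGCS1: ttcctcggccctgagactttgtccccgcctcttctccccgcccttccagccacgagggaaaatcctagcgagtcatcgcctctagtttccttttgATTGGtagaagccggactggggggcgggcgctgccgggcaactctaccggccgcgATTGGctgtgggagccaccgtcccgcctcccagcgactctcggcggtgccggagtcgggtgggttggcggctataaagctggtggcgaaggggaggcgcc
ACLY: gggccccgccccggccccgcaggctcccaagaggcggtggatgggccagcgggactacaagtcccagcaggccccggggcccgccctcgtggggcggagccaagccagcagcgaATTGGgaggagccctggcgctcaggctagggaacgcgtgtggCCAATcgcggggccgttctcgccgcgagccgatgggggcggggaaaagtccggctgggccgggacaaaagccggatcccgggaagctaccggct
HSD17B7: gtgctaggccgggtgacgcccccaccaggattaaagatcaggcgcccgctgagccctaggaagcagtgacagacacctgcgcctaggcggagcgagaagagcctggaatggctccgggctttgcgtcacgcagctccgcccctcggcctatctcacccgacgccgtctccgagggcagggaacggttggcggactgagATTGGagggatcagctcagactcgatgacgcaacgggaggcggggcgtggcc
SREBF2: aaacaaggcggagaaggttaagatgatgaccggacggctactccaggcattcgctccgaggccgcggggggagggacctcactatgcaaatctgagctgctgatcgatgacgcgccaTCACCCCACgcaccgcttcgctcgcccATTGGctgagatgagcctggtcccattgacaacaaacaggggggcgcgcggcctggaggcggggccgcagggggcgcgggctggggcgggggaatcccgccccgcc

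RefSeq promoters, running from 250 bases before to 50 after the start, were found for 30 of the 34 genes, 41 promoters in all. The letters CCAAT on either strand occurred in 25 of the 41 (61%), against 34.6% of all 35116 promoters in the table, which include genes of every kind. The sterol regulatory element, searched only as TCACNCCAC without mismatch, occurred in 1 of the 41 (2.44%), that of SREBF2, against 1.13% of all promoters. Other forms of this element were not searched, so the count does not show that the remaining promoters lack one. The E-box CACGTG occurred in 5 of the 41 (12.2%), belonging to LSS, SC5D, SCAP and INSIG1, against 7.26%. The heat shock element, searched as 3 alternating units without mismatch, occurred in none of the 41 and in 0.49% of all promoters. These are matches of letters only. The motifs were searched on both strands, and where CCAAT sites on opposite strands overlapped, as in IDI1 and NSDHL, the promoter was counted once.

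The arrays were alike as a whole, with medians from 10.6 to 14.2, a trimmed mean of 150 on each, and correlations of 0.980 to 0.995 between arrays. Array 2 of the shNTC Dox DMSO group stood apart by its ACTB 3-prime to 5-prime ratio of 46.8, a sign of shorter RNA, against 4.73 to 18.9 on the others. Changes named below that rest on it are therefore also given without it, for a gene's brightest probe set only. With that array left out, 0 of the 29 genes were called in the 3 comparisons it enters, and 19 (Doxycycline), 23 (between the 2 groups with Doxycycline) and 18 (interaction) kept the sign of their change. The same ratio for GAPDH was 3.13 on shNTC Dox DMSO array 2 and 2.73 on shHSF1 HSP990 array 1, against 1.34 to 2.11 on the rest. The latter array also had the second highest ACTB ratio, 18.9. It enters the knockdown and NVP-HSP990 comparisons and the interaction, and most changes there are not given without it. *HSF1* had a signal of 5.5 and 7.3 on the shHSF1 Dox HSP990 arrays and of 36.6 to 99.0 on the other 6, in the direction of the labels. Of the melanocyte lineage markers, 4 of 8 measured (SOX10, MITF, S100B and S100A1) were at or above the median on every array and the pigment genes PMEL, MLANA, TYR and TYRP1 on none. Hepatocyte and colon markers had 0 of 4 each at or above the median on all 8 arrays. Of the fibroblast markers, 2 of 4 (LUM and COL1A1) were above it on all 8, and their list summed to 816.2 to 879.7 on the shHSF1 Dox HSP990 arrays against 471.6 to 605.8 in the other groups, most of it LUM. The part of LUM in the results below was not tested.

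None of the 29 genes passed the test in any of the comparisons. In each, a gene was called when its limma p, after Benjamini-Hochberg adjustment across the 12672 genes, was under 0.05, on log2 of the deposited signal plus 16, and a change is a difference on that scale. RNA came from whole cultures, where fewer cells of a kind and less RNA per cell cannot be told apart. With *HSF1* knockdown (shHSF1 Dox HSP990 against shHSF1 HSP990) 0 of 29 were called, against 2.84% of all genes tested, and 3 had an unadjusted p under 0.05, against 15.3%. With NVP-HSP990 (shHSF1 HSP990 against shNTC DMSO) the counts were 0, against 0.221%, and 2, against 4.96%. With Doxycycline (shNTC Dox DMSO against shNTC DMSO) they were 0, against 0%, and 1, against 2.41%. The 2 groups with Doxycycline, shHSF1 Dox HSP990 against shNTC Dox DMSO, gave 0 of 29 against 5.83%, and 5 at an unadjusted p under 0.05 against 19.5%. The interaction was the Doxycycline effect in the shHSF1 cells minus that in the shNTC cells. All shHSF1 cells were under NVP-HSP990 and all shNTC cells under DMSO, so hairpin and inhibitor cannot be told apart in it. Its counts were 0 against 0.789% and 3 against 10.6%. The shares among these genes were thus near or below those of all genes. All 55 probe sets of the members that passed the filter were also tested singly, and 0 of the 55 were called with the knockdown, against 1.88% of all probe sets, with 5 at an unadjusted p under 0.05, against 14%. The Student t-test named in the study's statistics called 0 of the 12672 genes after adjustment in each pairwise comparison. It therefore could not set the members apart. At an unadjusted p under 0.05 it had 4, 3, 0 and 2 of the 29 in the knockdown, NVP-HSP990, Doxycycline and last pairwise comparison. The counts over all 12672 genes were 1413, 699, 588 and 1335. By this test the members' share was higher with the knockdown and NVP-HSP990 and lower in the rest.

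The members were spread on both sides of 0. Their median log2 change was 0.0475 with the knockdown, with 15 above 0 and 14 below and a range of -0.80 to 0.82, where the median of all genes was 0.0015. With NVP-HSP990 the median was 0.0190 (all genes 0.0096) over a range of -0.29 to 0.48, with 15 above 0 and 14 below, and with Doxycycline it was -0.0347 (all genes -0.0064) over a range of -0.74 to 0.38, with 11 above and 18 below. Between the 2 groups with Doxycycline it was 0.147 (all genes 0.0139), with 18 above and 11 below. None of these medians kept its sign under every left-out array. The knockdown median became -0.0485 when shHSF1 HSP990 array 2 was left out and -0.0111 when shHSF1 Dox HSP990 array 1 was. Leaving out shHSF1 HSP990 array 1 took the knockdown median to 0.107 and the NVP-HSP990 median to -0.0428. The NVP-HSP990 median was 0.113 with shHSF1 HSP990 array 2 left out, and 0.0439 and -0.0233 with shNTC DMSO array 1 or 2 left out. The Doxycycline median was 0.0227 and -0.0622 with shNTC DMSO array 1 or 2 left out, and -0.0166 and 0.0414 with shNTC Dox DMSO array 1 or 2 left out. Between the 2 groups with Doxycycline it was -0.0347 when shHSF1 Dox HSP990 array 1 was left out and 0.0534 when shNTC Dox DMSO array 2 was. The 95% interval of the knockdown's change lay within 1 log2 unit of 0 for 25 of the 29 genes (86.2%), against 86.4% of all genes. With NVP-HSP990 it did for 28 of 29 (96.6%), against 93.9%. Changes of that size were thus outside the interval for most members, as for most genes tested, but smaller ones were not. No label states that the 2 arrays of a group hold separate cultures, and every p then rests on a spread that may be technical.

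**Figure D1:**
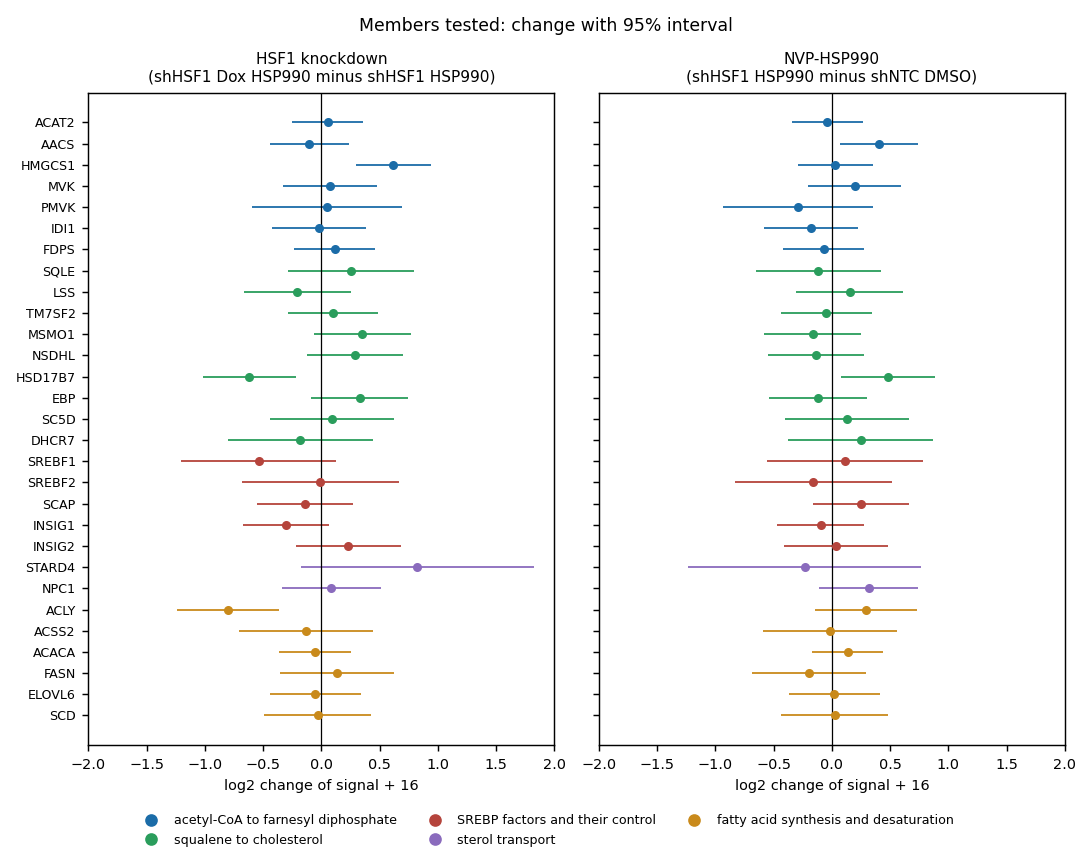
Log2 change of signal plus 16 (x axis) for each of the 29 genes tested (y axis), with the knockdown on the left and NVP-HSP990 on the right; points are the fitted changes, bars their 95% intervals, and colours the role of the gene. HMGCS1 lies highest above 0 relative to its interval with the knockdown (0.62) and ACLY lowest (-0.80), and in the right panel HMGCS1 lies at 0.03 and ACLY at 0.29.

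The early enzymes, from acetyl-CoA to farnesyl diphosphate, had 7 of 8 members tested, and with the knockdown 5 lay above 0 and 2 below, with a median change of 0.06. HMGCS1, the synthase that joins acetyl-CoA and acetoacetyl-CoA into HMG-CoA, gave signals of 1064.0 and 1194.8 for shNTC DMSO, 1208.6 and 1308.7 for shNTC Dox DMSO, 1185.4 and 1116.2 for shHSF1 HSP990, and 1803.0 and 1749.3 for shHSF1 Dox HSP990. Both arrays of the knockdown lay above all the other 6. The change with the knockdown was 0.62 ± 0.14 (SE, 2 arrays a group), with an adjusted p of 0.0512, just short of the threshold, and a 95% interval of 0.30 to 0.94. Its second probe set had 148.8 and 120.7, 169.0 and 119.0, 106.6 and 93.8, and 211.5 and 177.7 in the same order of groups, again with the knockdown arrays above all others, and a change of 0.86 ± 0.21 with an adjusted p of 0.0806. HMGCS1 passed the threshold with the knockdown in 7 of 20 other settings, with adjusted p from 0.0180 to 0.328 over all 20, and among the settings that left out an array it passed with either shNTC Dox DMSO array removed, neither of which enters the difference itself (adjusted p of 0.0360 for array 1 and 0.0359 for array 2).

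AACS, which activates acetoacetate for lipid synthesis, had signals of 288.0 and 268.3, 251.5 and 259.6, 365.8 and 380.6, and 346.6 and 346.8 in the same order. All 4 shHSF1 arrays lay above all 4 shNTC arrays. Its change was 0.40 ± 0.15 with NVP-HSP990, with an adjusted p of 0.841, and 0.42 ± 0.15 between the 2 groups with Doxycycline, with an adjusted p of 0.153 (0.44 and 0.277 with shNTC Dox DMSO array 2 left out). PMVK, phosphomevalonate kinase, had 223.2 and 175.2, 212.3 and 120.4, 130.6 and 191.6, and 134.9 and 199.4, and every group overlapped every other. IDI1, which isomerizes isopentenyl diphosphate, had 1118.9 and 1082.4, 1106.7 and 1042.2, 1111.8 and 845.2, and 1095.7 and 831.1, with the second shHSF1 arrays the lowest whether or not Doxycycline was given. Its change was -0.02 ± 0.18 with the knockdown and -0.18 ± 0.18 with NVP-HSP990. The IDI1 probe set is of a type whose probes can match other transcripts, so it is uncertain as a measure of this gene alone.

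The other early enzymes varied little. ACAT2, which condenses acetyl-CoA, ranged from 884.2 to 1045.2 over the 8 arrays and FDPS, farnesyl diphosphate synthase, from 1153.2 to 1514.5, with changes of 0.06 ± 0.14 and 0.12 ± 0.16 with the knockdown. MVK, mevalonate kinase, was dim, from 24.5 to 38.1, with a change of 0.07 ± 0.18. A second MVK probe set, also dim, had 12.0 and 11.8 for shHSF1 HSP990 against 24.7 and 24.1 for shHSF1 Dox HSP990, and 15.5 to 23.3 in the shNTC arrays. That probe set's change was 0.53 ± 0.16 with the knockdown (adjusted p of 0.160), so the probe sets of MVK did not give the same size of change. MVD, the decarboxylase that follows PMVK, had signals of 0.6 to 4.5.

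Of the enzymes from squalene to cholesterol, 9 of 11 were tested, and with the knockdown 6 lay above 0 and 3 below, with a median of 0.10. SQLE, the oxygen-requiring squalene epoxidase, had signals of 733.7 and 585.3, 807.6 and 658.1, 776.8 and 468.7, and 834.3 and 627.8 in the same order of groups. Its first array was above its second in all 4 groups, and the groups overlapped. Its change with the knockdown was 0.26 ± 0.24 and with NVP-HSP990 -0.12 ± 0.24. MSMO1, the methylsterol oxidase, had 1259.6 and 1080.2, 1626.3 and 1422.5, 1188.9 and 907.9, and 1500.9 and 1181.1. Here both groups with Doxycycline had the higher means, with a change of 0.35 ± 0.19 in shHSF1 cells and 0.38 ± 0.19 in shNTC cells, and adjusted p of 0.422 and 1. With shNTC Dox DMSO array 2 left out the change in shNTC cells was 0.47 (adjusted p of 0.998). EBP, the sterol isomerase, had 1852.3 and 1969.4, 1985.0 and 1631.9, 1569.2 and 1968.6, and 1958.0 and 2506.4, with a change of 0.33 ± 0.19 with the knockdown and groups that overlapped. Its 2 other tested probe sets had larger changes, 0.75 ± 0.37 and 0.64 ± 0.34, without overlap between the groups but with adjusted p of 0.410 and 0.456. In both, the lowest array of this comparison was shHSF1 HSP990 array 1 (698.4 and 540.5), which had the second highest ACTB ratio, 18.9. The part of RNA length in these changes was not tested.

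HSD17B7, the ketosteroid reductase of sterol demethylation, had signals of 234.2 and 224.5, 192.1 and 259.7, 331.6 and 322.0, and 210.1 and 204.9. The shHSF1 HSP990 arrays were the highest of the 8, and the shHSF1 Dox HSP990 arrays lay within the range of the shNTC arrays. Its change was 0.48 ± 0.18 with NVP-HSP990 (adjusted p of 0.844) and -0.62 ± 0.18 with the knockdown (adjusted p of 0.110), and it passed the threshold in none of the 20 other settings. The probe set is of a type whose probes can match other transcripts, so its value is uncertain as a measure of this gene alone.

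The remaining enzymes of this arm had changes of -0.21 to 0.29 with the knockdown. LSS, which cyclizes squalene epoxide to lanosterol, ranged from 439.1 to 712.5 over the 8 arrays, NSDHL, a sterol dehydrogenase, from 537.7 to 831.9, and SC5D, the lathosterol desaturase, from 316.0 to 528.7. DHCR7, which completes the synthesis of cholesterol from 7-dehydrocholesterol, ranged from 47.6 to 94.0, and TM7SF2, a sterol reductase, was near the floor of the arrays at 11.7 to 21.0. The 2 probe sets of DHCR7 had changes of opposite sign with the knockdown, -0.18 ± 0.28 and 0.55 ± 0.27, and so had those of LSS, -0.21 ± 0.21 and 0.26 ± 0.24, none of them called. The DHCR7 probe set with the change of 0.55 was also lowest on shHSF1 HSP990 array 1 (28.6).

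The 5 regulators were not called either, and 4 of them lay below 0 with the knockdown. SREBF2 had signals of 129.3 and 84.8, 143.7 and 68.5, 105.7 and 80.2, and 91.0 and 92.1, with a change of -0.01 ± 0.30 with the knockdown and -0.16 ± 0.30 with NVP-HSP990. SCAP, the escort of the SREBP precursors, had 193.0 and 176.4, 152.3 and 199.3, 233.5 and 211.0, and 198.0 and 203.1. The SCAP signals of the shHSF1 HSP990 arrays were the highest, with a change of 0.25 ± 0.19 with NVP-HSP990 and -0.14 ± 0.19 with the knockdown. SREBF1 had 171.3 and 139.2, 74.2 and 100.1, 222.2 and 126.6, and 145.2 and 83.9. Its groups with Doxycycline had the lower means in both lines, with changes of -0.74 ± 0.30 in shNTC cells (adjusted p of 1) and -0.54 ± 0.30 in shHSF1 cells (adjusted p of 0.446). With shNTC Dox DMSO array 2 left out, the change in shNTC cells was -0.92 (adjusted p of 0.998), and it was not called in any of the 20 other settings, where adjusted p ran from 0.780 to 1. The other SREBF1 probe set had a change of -0.83 ± 0.33 with Doxycycline in shNTC cells (adjusted p of 1), of the same sign as the first, but 0.32 ± 0.33 with the knockdown, of the opposite sign. Its signals were 165.2 and 91.2 for shNTC DMSO against 94.2 and 39.9 for shNTC Dox DMSO. The 39.9 was on array 2, and the 94.2 of array 1 lay between the shNTC DMSO arrays. The size of this probe set's change without array 2 is not given here.

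INSIG1, itself a sharply sterol-regulated target that anchors SCAP, had signals of 1486.2 and 1757.0, 1541.6 and 1644.5, 1654.3 and 1376.1, and 1315.9 and 1126.2. Both arrays of the knockdown lay below the other 6. The change was -0.31 ± 0.17 with the knockdown (adjusted p of 0.432) and -0.38 ± 0.17 between the 2 groups with Doxycycline (adjusted p of 0.239), or -0.34 with shNTC Dox DMSO array 2 left out (0.405). HMGCS1 and INSIG1, both classical SREBP targets, thus lay on opposite sides of 0, neither past the threshold. The other INSIG1 probe sets had changes of -0.39 ± 0.27 and 0.21 ± 0.36. INSIG2, which lacks most of this sterol control, had 215.4 and 189.8, 238.0 and 165.4, 225.6 and 190.8, and 252.0 and 240.7, with a change of 0.23 ± 0.20 with the knockdown.

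The sterol carriers were both above 0 with the knockdown, though not past the test. STARD4, a cytosolic sterol carrier, had signals of 202.1 and 133.1, 316.0 and 102.4, 186.9 and 100.0, and 328.2 and 198.1, with a change of 0.82 ± 0.45 (adjusted p of 0.435). This was the largest change above 0 among the 29 genes and also carried the largest SE. Its first array was above the second in all 4 groups, and the difference within the shNTC Dox DMSO group, 316.0 against 102.4, was wider than that between any group means. NPC1, which exports cholesterol from lysosomes, had 347.3 and 350.0, 364.2 and 312.1, 492.1 and 390.5, and 544.8 and 398.5, with all 4 shHSF1 arrays above all 4 shNTC arrays. With the knockdown its change was only 0.09 ± 0.19 (adjusted p of 0.904), and those groups overlapped. Its change was 0.32 ± 0.19 with NVP-HSP990 and 0.45 ± 0.19 between the 2 groups with Doxycycline (adjusted p of 0.228), where leaving out shNTC Dox DMSO array 2 gave 0.34 (adjusted p of 0.513). That change was 0.23 (0.625) with shHSF1 Dox HSP990 array 1 left out and 0.67 (0.176) with array 2 left out.

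**Figure D2:**
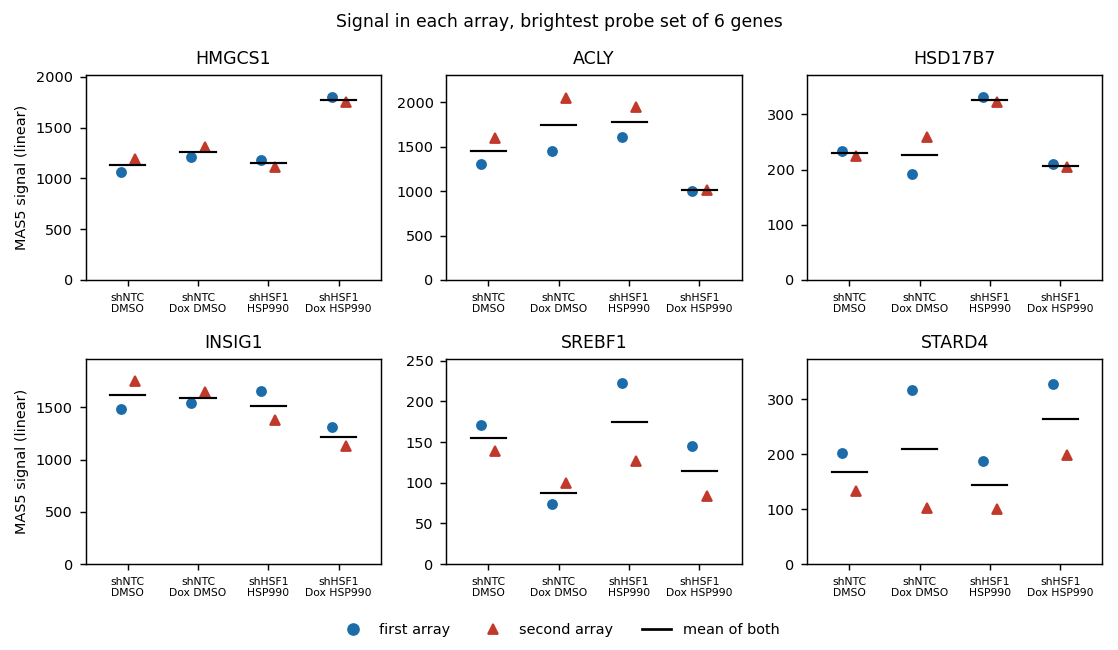
MAS5 signal on a linear axis from 0 for 6 genes in the 4 groups (x axis); circles are the first array of a group, triangles the second, and lines the mean of both. HMGCS1 is highest on both shHSF1 Dox HSP990 arrays (1803.0 and 1749.3), ACLY is lowest there (1003.5 and 1016.6), and the first and second arrays of STARD4 lie far apart in all 4 groups.

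The fatty acid enzymes had 6 of 8 members tested, of which 1 lay above 0 and 5 below with the knockdown, with a median of -0.05. ACLY, which cleaves citrate to supply acetyl-CoA to both pathways, had signals of 1302.0 and 1603.4, 1447.5 and 2051.5, 1607.5 and 1950.1, and 1003.5 and 1016.6. Both arrays of the knockdown lay below the other 6. Its change was -0.80 ± 0.20 with the knockdown (adjusted p of 0.0616, 95% interval of -1.24 to -0.36) and -0.76 ± 0.20 between the 2 groups with Doxycycline (adjusted p of 0.0501). For the interaction it was -1.05 ± 0.28 (adjusted p of 0.148), and -0.80 with shNTC Dox DMSO array 2 left out (adjusted p of 0.268). The interaction values of HMGCS1 and HSD17B7 were 0.46 ± 0.20 and -0.58 ± 0.26, with adjusted p of 0.457 and 0.455, and 0.52 and -0.38 with the same array left out (0.405 and 0.719). The HSD17B7 value was -0.79 with shNTC Dox DMSO array 1 left out (0.187). The other ACLY probe sets had 558.6 and 494.2, 540.4 and 578.8, 623.6 and 492.2, and 488.2 and 358.3, and 347.5 and 296.1, 293.4 and 269.7, 331.4 and 233.6, and 248.4 and 176.9. Their changes with the knockdown were smaller, -0.39 ± 0.19 and -0.38 ± 0.22, and the second of them overlapped between the groups.

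The ACLY result depended on single arrays. With the knockdown it passed the threshold in 4 of 20 other settings, with adjusted p from 0.0147 to 0.396, among them with shNTC Dox DMSO array 1 (0.0284) or array 2 (0.0287) left out, neither of which enters the difference. Between the 2 groups with Doxycycline it passed in 7 of 20, with adjusted p from 0.0123 to 0.531. Leaving out shNTC Dox DMSO array 1 gave a change of -1.01 there (adjusted p of 0.0238), and leaving out array 2, the array with the high ACTB ratio, gave -0.51 (adjusted p of 0.200). The adjusted p was 0.0478 and 0.0471 with shHSF1 HSP990 array 1 or 2 left out, again arrays outside the difference. HMGCS1 between the 2 groups with Doxycycline had a change of 0.49 ± 0.14 (adjusted p of 0.0816) and 0.55 with shNTC Dox DMSO array 2 left out (adjusted p of 0.105). It passed in 2 of 20 other settings, with adjusted p from 0.0308 to 0.430.

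The other lipogenic enzymes tested had changes of -0.13 to 0.13 with the knockdown. FASN, fatty acid synthase, had signals of 201.6 and 141.9, 144.2 and 144.6, 147.0 and 145.0, and 191.0 and 136.6, with changes of 0.13 ± 0.22 with the knockdown and -0.19 ± 0.22 with NVP-HSP990. SCD, the stearoyl-CoA desaturase, had 3489.6 and 3902.0, 3465.8 and 5172.8, 3792.3 and 3705.1, and 3526.6 and 3811.7. The highest SCD signal was on shNTC Dox DMSO array 2, and the change was -0.03 ± 0.21 with the knockdown, with a 95% interval of -0.49 to 0.43. ACACA, the carboxylase that makes malonyl-CoA, ranged from 990.9 to 1214.3 and ELOVL6, a fatty acid elongase, from 1088.5 to 1487.8, with changes of -0.06 ± 0.14 and -0.05 ± 0.18. ACSS2, which activates acetate, ranged from 59.1 to 105.5 with a change of -0.13 ± 0.26. FADS2, the delta-6 desaturase, had signals of 2.4 to 13.4 on its brighter probe set.

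**Figure D3:**
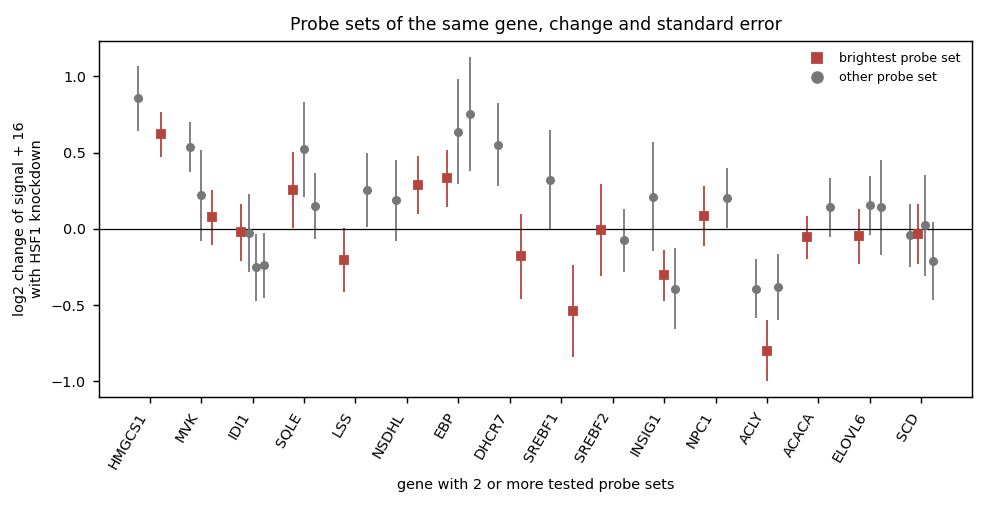
Log2 change of signal plus 16 with the knockdown (y axis) for each tested probe set of the genes with 2 or more of them (x axis); squares are the brightest probe set, circles the others, and bars 1 SE. Both HMGCS1 probe sets lie above 0 (0.62 and 0.86) and the 3 ACLY probe sets below (-0.80, -0.39 and -0.38), whereas those of DHCR7, LSS and SREBF1 lie on both sides.

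Counted by whether the 2 arrays of a group lay wholly above or below the 2 of the other, 10 of 29 genes did not overlap with the knockdown (4 higher and 6 lower), against 43.3% of all genes. The 4 were ACAT2, HMGCS1, INSIG2 and STARD4, and the 6 were AACS, HSD17B7, SCAP, INSIG1, ACLY and ACACA. With NVP-HSP990, 9 did not overlap (7 higher and 2 lower), against 33.2%, and with Doxycycline 8 did not (4 and 4), against 28.4%. Between the 2 groups with Doxycycline, 10 did not (6 higher and 4 lower), against 44.5%. As a share of the 29 genes, each of these counts was below that of all genes. The comparisons share arrays, so these counts are not independent of each other.

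The first and second arrays of the groups were also compared for each gene. The first array was above the second in all 4 groups for 6 of the 29 genes (20.7%), IDI1, SQLE, MSMO1, DHCR7, INSIG2 and STARD4, against 16.7% of all genes, and below it in all 4 for 1 (3.45%), ACLY, against 12.7%. The labels mark the second arrays as a repeat and do not say what else separates them from the first.

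**Figure D4:**
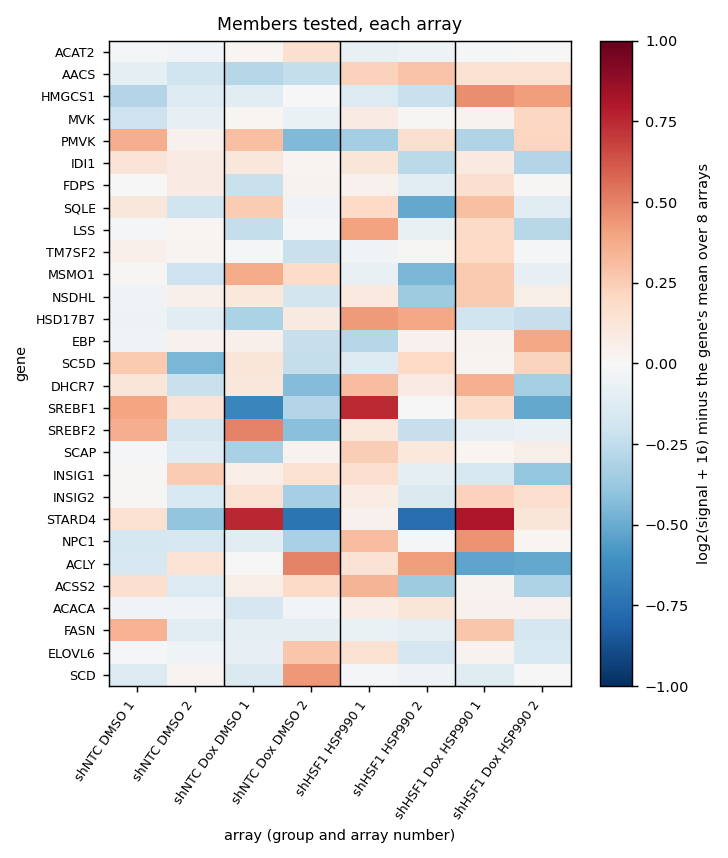
Log2 of signal plus 16 on each array (x axis, 2 per group) minus the gene's mean over the 8 arrays, for the 29 genes tested (y axis); red is above and blue below the gene's mean. HMGCS1 is red and ACLY blue on both shHSF1 Dox HSP990 arrays. In STARD4 the first array exceeds the second by 0.88 on average, against a change of 0.82 with the knockdown. In SQLE these values are 0.43 and 0.26.

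Of 36 further genes of sterol and lipid metabolism, listed for their function, 32 had a probe set and 31 were tested. With the knockdown, NVP-HSP990, Doxycycline and the interaction, 0 of the 31 were called by limma, against 2.84%, 0.221%, 0% and 0.789% of all genes, and 5, 1, 0 and 5 had an unadjusted p under 0.05, against 15.3%, 4.96%, 2.41% and 10.6%. Between the 2 groups with Doxycycline 2 of 31 fell and none rose, a share near the 5.83% of all genes called, and 11 had an unadjusted p under 0.05, against 19.5%. NR1H3, the sterol-sensing nuclear receptor LXR alpha, had signals of 574.7 and 531.9, 613.4 and 781.5, 598.7 and 397.5, and 405.5 and 293.7. It fell by 0.97 (SE 0.22, adjusted p of 0.0327) in the shHSF1 Dox HSP990 group. LBR, a nuclear membrane protein that also reduces sterols, had 2376.4 and 2766.1, 2386.6 and 3755.6, 2382.7 and 2434.3, and 1763.0 and 1385.0, and fell by 0.93 (SE 0.22, adjusted p of 0.0380). In both genes the arrays of the knockdown lay below those of the group compared with it.

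Neither call held under every left-out array, and line, inhibitor and knockdown cannot be told apart in this comparison. For NR1H3 the adjusted p was 0.0579 and 0.0587 with shNTC DMSO array 1 or 2 left out, 0.0526 and 0.182 with shNTC Dox DMSO array 1 or 2 left out, and 0.200 with shHSF1 Dox HSP990 array 2 left out. For LBR it was 0.0650 and 0.0648 with shNTC DMSO array 1 or 2 left out, 0.120 with shNTC Dox DMSO array 2 left out (a change of -0.61), and 0.0657 and 0.253 with shHSF1 Dox HSP990 array 1 or 2 left out. Over all 20 other settings adjusted p ran from 0.0109 to 0.510 for NR1H3 and from 0.00538 to 0.566 for LBR.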

How the data were processed

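Signal was measured on 8 HG-U133 Plus2 arrays of A375 cells, 2 per group, and samples were grouped by their titles. The description fields name other experiments and were not used. The deposited values are intensities that the authors computed with MAS5 (version not given) and scaled per array to a trimmed mean of 150 with 2% trimmed at each end, on a linear scale. The number of arrays limits the precision. Of 54675 probe sets, the 41091 with a single symbol were used, 1801 with several symbols and 11721 with none were not, and 62 were controls. The brightest probe set stood for a gene, and a gene was tested if it was at or above its array's median on at least 2 of 8 arrays (12672 of 19775 genes). Values were log2 of signal plus 16, without further normalization.

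Tests used limma 3.58.1 (R 4.3.3), with the means of the 4 groups over all 8 arrays and a variance trend (4 residual and 6.36 prior degrees of freedom), two-sided, with Benjamini-Hochberg adjustment and a threshold of 0.05. The steps were tested on simulated data. The genes and lists were chosen with earlier results of these data known. Values on every array are given for SREBF1, SREBF2, SCAP, INSIG1, INSIG2, HMGCS1, SQLE, FASN and SCD, for any member called, for the 4 largest changes in each direction with the knockdown and with NVP-HSP990, and for further genes that were called. Alternatives were 1 or 64 added before the log, no filter and one at the 75th percentile, quantile normalization, median centring, a gene's mean over its probe sets, single probe sets, no trend, only the arrays compared, a replicate block, the Student t-test named in the study's statistics, and leaving out each array. Promoter sequences came from RefSeq (GRCh38.p14).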

Additional observations from a re-analysis of the deposited data

How the results depend on the processing

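No other setting called a gene of the 34 other than HMGCS1 and ACLY, and each of the 16 changes of single genes that were refitted (members with an unadjusted p under 0.05, and NR1H3 and LBR) kept its sign, whereas the members' medians did not. With the knockdown, the count of called genes was 1 with 64 added, with the stricter filter and with the mean over probe sets (HMGCS1 each time), 2 with quantile normalization (HMGCS1 and ACLY), and 0 to 2 with 1 array left out. Between the 2 groups with Doxycycline it was 1 with 64 added and with the stricter filter (ACLY each time), 2 with quantile normalization, and 0 to 1 with 1 array left out. Quantile normalization also called more of all genes with the knockdown, 162 higher and 282 lower, against 126 and 234 in the main fit. Between the 2 groups with Doxycycline it called 368 higher and 460 lower, against 360 and 379. The shares of all genes called under the other settings are not given here. The replicate block, which took the array number as a term, gave 2, 2 and 1 called genes with the knockdown, between the 2 groups with Doxycycline and for the interaction (ACLY, adjusted p of 0.0366), none elsewhere. The labels do not say that the number marks a shared batch, and the deviations of same-numbered arrays correlated at 0.0156 to 0.685 over all genes in the 6 pairs of groups, so no pairing was assumed.

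The members' median with the mean over probe sets was 0.116 for the interaction, 0.0622 between the 2 groups with Doxycycline and -0.0537 with NVP-HSP990, and with all probe sets singly it was 0.0309 and -0.0699 in the last 2 of these. With 1 array left out it ran from -0.0485 to 0.107 with the knockdown, -0.0428 to 0.113 with NVP-HSP990, -0.0622 to 0.0414 with Doxycycline, -0.0347 to 0.147 between the 2 groups with Doxycycline and -0.0813 to 0.163 for the interaction. The cause was not tested. Where a group was left with 1 array, that array was assumed to vary like the other groups. The interaction was not run with only the arrays compared or with the Student t-test. NR1H3 and LBR also missed the threshold with no filter (adjusted p of 0.0698 and 0.0800), and LBR with the mean over probe sets (0.0512). Both missed it with the Student t-test too, which called no gene at all.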
